A study of Mus musculus with 6 samples.

Results

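The genes described are 9 negative feedback regulators of the ERK MAP kinase pathway: the dual-specificity phosphatase genes Dusp1, Dusp2, Dusp4, Dusp5 and Dusp6, the Sprouty genes Spry1 and Spry2, and the Spred genes Spred1 and Spred2. They were chosen by symbol, and all 9 were found among the 28822 gene identifiers of the count table. All 9 were expressed enough to be tested. The cells were mouse bone marrow-derived macrophages (BMDMs, macrophages grown from marrow precursors) in the upper chamber of a Transwell, a porous insert that lets soluble factors through. HT22 cells, a mouse hippocampal neuronal line deprived of oxygen and glucose for 2 h, lay in the lower chamber of both groups. Co-cultures received BW723C86, an agonist of the serotonin receptor 5-HT2B (3 libraries), or its solvent DMSO (3 libraries), and the comparison asks how the agonist altered expression in the upper-chamber cells. The labels name BMDMs with HT22, while the series' design text allows BV2 microglia or BMDMs. The labels give no dose, treatment length, mouse strain or number of cultures, so p-values measure the spread between these libraries, which may be technical.

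The ERK kinases carry signals from growth factor and other surface receptors through RAS, RAF and MEK to the nucleus. The pathway limits itself by inducing its own brakes. Dual-specificity phosphatases of the MAP kinase phosphatase class remove phosphates from ERK, p38 or JNK, while Sprouty and Spred proteins act upstream, at the level of receptors, RAS and RAF. In macrophages the pathway serves survival and proliferation under colony-stimulating factors as well as cytokine production, and many of its brake genes are themselves read as markers of ERK activity.

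BW723C86 replicate 2 stood apart from its group. With counts divided by 4, the chi-square per degree of freedom of its counts was 8.88 and 6.09 against BW723C86 replicates 1 and 3, and 2.46 to 2.77 for the other pairs within a group. Without it, 7 of the 9 genes passed the test below, 2 higher and 5 lower, as with it. With all 6 libraries, 42% of all 15567 tested genes passed.

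With BW723C86, the 9 genes moved in both directions. Dusp1 rose 2.81-fold and Dusp2 rose 2.03-fold, by the ratio of group means. Dusp6 fell to 37.7% of its DMSO mean, Spry2 to 62.2% and Spred2 to 65.0%. Dusp4 and Spred1 fell less, to 78.1% and 80.6%. In all, 2 of the 9 were higher and 5 lower with edgeR's quasi-likelihood test at an adjusted p under 0.05, and 2, Dusp5 and Spry1, did not pass. Of all 15567 tested genes 42% passed, 21.3% higher and 20.7% lower (3319 and 3215 genes, or 2581 and 4124 when libraries were scaled by their totals alone, which gave 2 higher and 6 lower of the 9). The median log2 fold change was -0.31 over the 9 genes and 0.00420 over all tested genes. In bulk RNA, a lower level from fewer cells of a type and from less RNA per cell cannot be told apart. Among changes of at least 2-fold that passed, 2 of the 9 were higher and 1 lower, against 4.41% and 4.05% of tested genes. Values are given as CPM, counts relative to a library total scaled by TMM, and log2 fold changes as BW723C86 over DMSO with their standard error (SE).

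**Figure D1:**
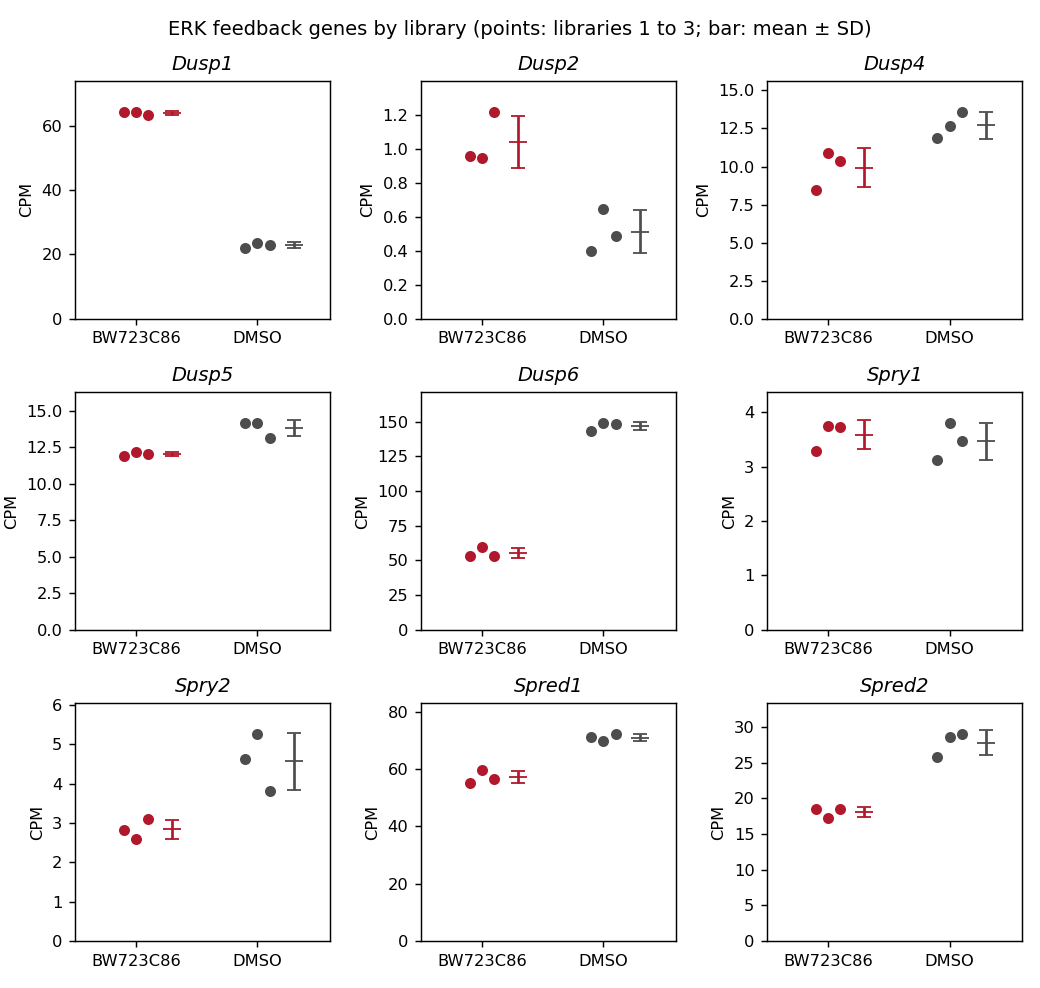
Level of each of the 9 genes in CPM (y axis, from 0) in BW723C86 and DMSO libraries; points are libraries and bars the mean ± SD of 3. BW723C86 libraries lie above DMSO libraries for Dusp1 and Dusp2, overlap with them for Spry1, and lie below them for the other panels.

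Of the 9 genes, 8 had BW723C86 libraries that did not overlap with the DMSO libraries, against 52.3% of all tested genes. The plot of levels by library shows Spry1 as the exception.

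Dusp1 (ENSMUSG00000024190, chromosome 17) encodes MKP-1, a nuclear phosphatase that prefers p38 and JNK over ERK and restrains cytokine production in macrophages. Its level was 64.3, 64.3 and 63.4 CPM in BW723C86 libraries 1 to 3, against 21.8, 23.6 and 22.9 CPM in DMSO libraries 1 to 3. The groups were far apart relative to their spread, with means of 64.0 ± 0.529 CPM in BW723C86 and 22.8 ± 0.902 CPM in DMSO (SD, n = 3 each). The log2 fold change was 1.49 (SE 0.056, adjusted p = 2.8e-10, edgeR). It rests on 3684 to 4624 counts in BW723C86 libraries and 1426 to 1781 counts in DMSO libraries.

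Dusp2 (ENSMUSG00000027368, chromosome 2) encodes PAC-1, a nuclear phosphatase found mainly in blood cells. It was the least abundant of the 9, with 55, 68 and 72 counts in BW723C86 libraries and 31, 39 and 38 counts in DMSO libraries. In CPM these were 0.959, 0.945 and 1.22 in BW723C86 and 0.399, 0.647 and 0.488 in DMSO. Every BW723C86 library lay above every DMSO library. The log2 fold change was 1.03 (SE 0.33, adjusted p = 0.025, edgeR). The call was lost without BW723C86 replicate 3, DMSO replicate 1 or DMSO replicate 3, with adjusted p of 0.094, 0.087 and 0.066 and log2 fold changes of 0.89, 0.87 and 1.00.

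Dusp6 (ENSMUSG00000019960, chromosome 10) encodes MKP-3, a cytoplasmic phosphatase specific for ERK and a common marker of ERK activity. It had 53.3, 59.5 and 53.2 CPM in BW723C86 libraries, against 143, 149 and 148 CPM in DMSO libraries. The means were 55.3 ± 3.61 CPM in BW723C86 and 147 ± 3.14 CPM in DMSO (SD, n = 3 each) (log2 fold change -1.41, SE 0.054, edgeR's adjusted p = 3.3e-10). Dusp6 and Dusp1 thus changed by similar amounts in opposite directions. Per kilobase of exon, the ratio of Dusp1 to Dusp6 within a library was 1.42, 1.27 and 1.40 in BW723C86 and 0.180, 0.187 and 0.182 in DMSO. Dusp1 was the more abundant in each BW723C86 library and Dusp6 in each DMSO library.

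The promoters of the largest changes in each direction, Dusp1 and Dusp6, and of the other gene that rose, Dusp2, are shown because these genes moved apart. They are RefSeq windows on GRCm38.p6, from 250 bases before to 50 bases after the annotated start, 5′ to 3′ on the gene's strand. Capitals mark matches to the cAMP response element (CRE, TGACGTCA), to its core TGACG and to the E-box CACGTG, searched on both strands, with the core contained in the CRE.
Dusp1, chr17:26508423-26508722, minus strand: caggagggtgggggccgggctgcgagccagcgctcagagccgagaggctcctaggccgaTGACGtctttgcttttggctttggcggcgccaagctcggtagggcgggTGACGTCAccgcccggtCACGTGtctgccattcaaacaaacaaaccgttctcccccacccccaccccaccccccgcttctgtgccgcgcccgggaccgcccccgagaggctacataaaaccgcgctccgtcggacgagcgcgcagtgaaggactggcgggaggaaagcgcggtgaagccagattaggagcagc
Dusp2, chr2:127335909-127336208, plus strand: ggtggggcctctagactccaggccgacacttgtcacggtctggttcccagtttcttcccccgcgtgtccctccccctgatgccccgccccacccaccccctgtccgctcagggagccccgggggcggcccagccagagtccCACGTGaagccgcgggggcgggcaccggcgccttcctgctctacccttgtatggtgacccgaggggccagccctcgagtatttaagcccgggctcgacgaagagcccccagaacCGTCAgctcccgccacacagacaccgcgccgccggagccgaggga
Dusp6, chr10:99262981-99263280, plus strand: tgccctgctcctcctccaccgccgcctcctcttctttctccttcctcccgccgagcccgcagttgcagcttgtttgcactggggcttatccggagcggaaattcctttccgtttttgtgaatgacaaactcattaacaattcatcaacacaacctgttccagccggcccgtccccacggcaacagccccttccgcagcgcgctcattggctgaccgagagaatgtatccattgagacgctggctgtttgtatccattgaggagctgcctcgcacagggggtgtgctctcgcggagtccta

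The Dusp1 window held the CRE at -143 to -136 from the start site, a separate core at -191 to -187 and an E-box at -126 to -121. The Dusp2 window held an E-box at -109 to -104 and a core at 6 to 10, on the minus strand. No match to these motifs was in the Dusp6 window. The core also lay in the windows of Spred2, at -51 to -47, and Dusp5, at -55 to -51. Neither gene rose: Spred2 fell and Dusp5 did not pass. Windows were at hand for 8 of the 9 genes, and Dusp4 had no entry. Of the 8, 1 held the CRE, against 1.79% of all 32851 windows, 4 held the core, against 20.8%, and 2 held the E-box, against 7.15%. The AP-1 site TGANTCA was in none of the 8, against 7.81% of all windows. A serum response element, the site of serum response factor, was in the Dusp5 window, against 1.63% of all windows; the match occurred there at -82 to -73 and at -72 to -63. A match describes the letters and is not evidence of binding. The 8 windows held 57% to 72.3% G and C, against a median of 52.7% over all windows.

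The remaining nuclear phosphatase genes had smaller differences. Dusp4 (ENSMUSG00000031530, chromosome 8), encoding MKP-2, which acts on ERK and JNK, had 8.48, 10.9 and 10.4 CPM in BW723C86 libraries and 11.9, 12.7 and 13.6 CPM in DMSO libraries. The groups did not overlap, with BW723C86 replicate 1 lowest, and the log2 fold change was -0.36 (SE 0.11, adjusted p = 0.019, edgeR). That call was lost without BW723C86 replicate 1 (log2 fold change -0.26, adjusted p = 0.07), without DMSO replicate 2 (-0.36, adjusted p = 0.055) and without DMSO replicate 3 (-0.31, adjusted p = 0.084). Dusp5 (ENSMUSG00000034765, chromosome 19) encodes a nuclear phosphatase specific for ERK. It had 11.9, 12.2 and 12.0 CPM in BW723C86 libraries and 14.1, 14.1 and 13.1 CPM in DMSO libraries. Its groups did not overlap either, yet its log2 fold change of -0.20 (SE 0.082) fell short of the threshold (edgeR's adjusted p = 0.07). It passed when libraries were scaled by their totals alone, at an adjusted p of 0.02 and a log2 fold change of -0.27.

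The Sprouty genes encode membrane-associated inhibitors of receptor tyrosine kinase signalling. Spry2 (ENSMUSG00000022114, chromosome 14) had 2.83, 2.60 and 3.09 CPM in BW723C86 libraries and 4.63, 5.26 and 3.80 CPM in DMSO libraries. All BW723C86 libraries lay below all DMSO libraries, and the log2 fold change was -0.68 (SE 0.17, adjusted p = 0.0052, edgeR). Spry1 (ENSMUSG00000037211, chromosome 3) had 3.28, 3.74 and 3.73 CPM in BW723C86 libraries and 3.11, 3.80 and 3.47 CPM in DMSO libraries. The groups overlapped, and the log2 fold change of 0.05 (SE 0.16) did not pass (edgeR's adjusted p = 0.82). Per kilobase, the ratio of Spry1 to Spry2 was 0.911 ± 0.107 in BW723C86 and 0.552 ± 0.0909 in DMSO (SD, n = 3 each). A difference between the changes of these genes was not tested as such.

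The Spred genes encode Sprouty-related proteins that bring the RAS inhibitor neurofibromin to the membrane. Spred1 (ENSMUSG00000027351, chromosome 2) had 55.4, 59.7 and 56.8 CPM in BW723C86 libraries and 71.2, 69.8 and 72.2 CPM in DMSO libraries. Spred2 (ENSMUSG00000045671, chromosome 11) had 18.5, 17.3 and 18.5 CPM in BW723C86 libraries and 25.8, 28.6 and 29.0 CPM in DMSO libraries. Both sets of libraries were separate between groups. The log2 fold changes were -0.31 for Spred1 (SE 0.051, adjusted p = 0.00029) and -0.62 for Spred2 (SE 0.073, adjusted p = 1.6e-05, edgeR). When the test required more than a 1.2-fold change, Spred2 passed and Spred1 did not (adjusted p = 0.22, edgeR).

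**Figure D2:**
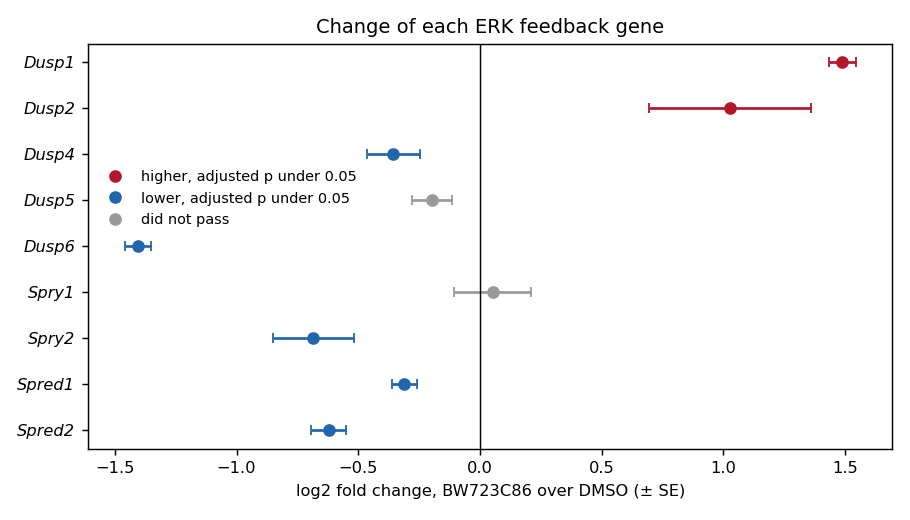
Log2 fold change of each gene, BW723C86 over DMSO (x axis), with bars of 1 SE; colour shows the edgeR call. Dusp1 at 1.49 and Dusp6 at -1.41 lie farthest from 0, and Dusp2 has the widest bar (SE 0.33).

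Per kilobase of exon, Dusp1 stood at the top in BW723C86 (27.0 CPM per kb), before Dusp6 (19.8) and Spred1 (8.44). Then came Dusp5 (4.86), Spred2 (4.07), Dusp4 (3.62), Spry2 (1.36), Spry1 (1.23) and Dusp2 (0.643 CPM per kb). In DMSO the order was Dusp6 (52.4 CPM per kb), Spred1 (10.5), Dusp1 (9.61), Spred2 (6.25), Dusp5 (5.58), Dusp4 (4.64), Spry2 (2.19), Spry1 (1.19) and Dusp2 (0.316). Neighbours in these orders did not overlap between libraries, except Spred2 with Dusp4 and Spry2 with Spry1, both in BW723C86. The exon lengths behind them run from 1.62 kb for Dusp2 to 6.78 kb for Spred1, so the order of close neighbours rests on the annotation.

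**Figure D3:**
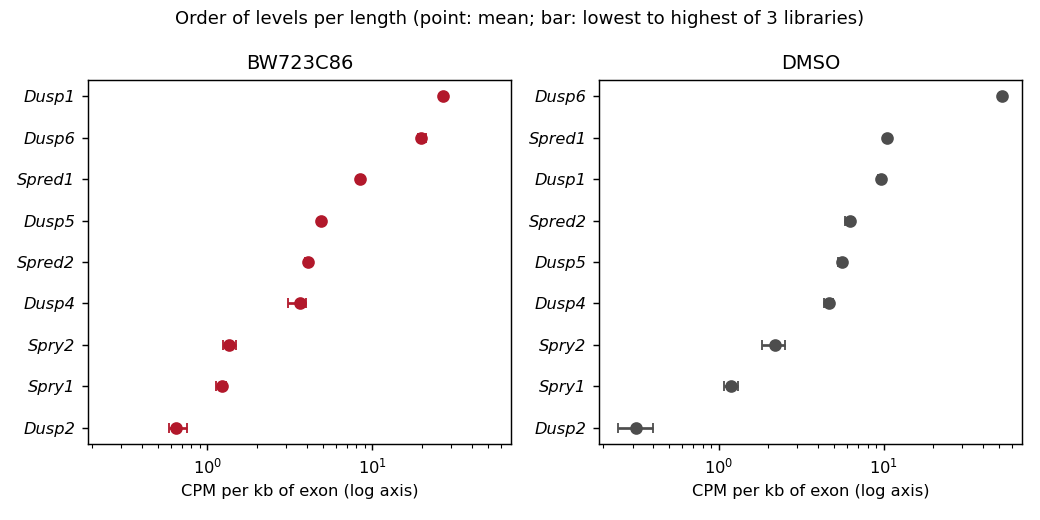
Level per kilobase of exon (CPM per kb, log axis) of the 9 genes in BW723C86 (left) and DMSO (right), in order of the group mean; bars run from the lowest to the highest of 3 libraries. Dusp1 leads in BW723C86 at 27.0 CPM per kb and Dusp6 in DMSO at 52.4 CPM per kb.

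Over the 6 libraries, the genes of at least 5 CPM whose log2 CPM was most like that of Dusp6 were Mmp8, the neutrophil collagenase gene, Cd38, an NAD-consuming surface enzyme gene, and Fbxl14, an F-box protein gene (Pearson r of 1.00 each, 6 libraries). The libraries form 2 groups, so this r mainly reflects the group difference, and 1939 of 10092 genes of that level had an r above 0.9. Among the 9 genes, r with Dusp6 was 0.986 for Spred1, 0.974 for Spred2, 0.938 for Dusp5, 0.895 for Spry2 and 0.851 for Dusp4. It was -0.205 for Spry1, -0.912 for Dusp2 and -0.994 for Dusp1.

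Some of the transcripts carry an AU-rich heptamer of a kind known from sites of rapid mRNA decay. The heptamer TATTTAT occurred in the annotated 3′ UTR of 6 of the 9 genes, against 29% of 12474 tested coding genes, and at least 2 times in 4 of them, against 10.1%. Dusp1 and Spred1 had 3 copies, Spry1 and Spry2 had 2, and Dusp2 and Spred2 had 1. None was found in Dusp4, Dusp5 or Dusp6. The 3′ UTR of Spred1 is long, at 4330 bases, against a median of 1110.5 over these genes, and that of Dusp1 is 690 bases. For the 2 genes that rose, the site nearest the stop codon is shown with the heptamer in capitals, from GENCODE M21 transcripts. It is 1 of the 3 copies of Dusp1 and the 1 copy of Dusp2.
Dusp1: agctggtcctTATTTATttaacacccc
Dusp2: cagcactttaTATTTATatagaacatt

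Among the other MAP kinase phosphatase, Sprouty and Spred genes, those that did not pass were also the lowest in CPM. Of the 5 other MAP kinase phosphatase genes, 2 fell, against 20.7% of all tested genes. Dusp16, whose product acts on JNK and p38, had 15.4 ± 0.810 CPM in BW723C86 and 27.9 ± 1.43 CPM in DMSO (log2 fold change -0.86, adjusted p = 9.8e-07, edgeR). Dusp7, encoding a cytoplasmic ERK phosphatase, had 37.5 ± 1.03 CPM in BW723C86 and 48.8 ± 1.33 CPM in DMSO (log2 fold change -0.38, adjusted p = 9.4e-05, edgeR). Dusp10, another JNK and p38 phosphatase gene, was at 2.86 ± 0.222 CPM in BW723C86 and 3.17 ± 0.201 CPM in DMSO and did not pass. Dusp8 and Dusp9 did not pass either, with Dusp8 at 0.296 ± 0.0861 CPM in BW723C86 and 0.500 ± 0.0761 CPM in DMSO, and Dusp9 at 1.24 ± 0.364 CPM in BW723C86 and 1.11 ± 0.403 CPM in DMSO. Spred3 had 4.38 ± 0.766 CPM in BW723C86 and 5.65 ± 0.787 CPM in DMSO (log2 fold change -0.37, edgeR's adjusted p = 0.09). It passed with library totals alone (adjusted p = 0.039) and without BW723C86 replicate 1 (log2 fold change -0.50, adjusted p = 0.035). Spry4 had 0, 17 and 8 counts in BW723C86 libraries and 35, 15 and 27 counts in DMSO libraries, and did not pass (log2 fold change -1.45, edgeR's adjusted p = 0.17). Spry3 was listed too, but its symbol was not found among the identifiers of the count table.

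Atypical dual-specificity phosphatases lack the docking domain of the MAP kinase phosphatases. Against 21.3% of all tested genes higher and 20.7% lower, 4 of 10 tested genes rose, 0 fell and 6 did not pass. Their median log2 fold change was 0.23. The 4 were Dusp3 (113 ± 1.08 CPM in BW723C86 and 84.8 ± 3.78 CPM in DMSO), Dusp23, Dusp19 and Dusp22, with log2 fold changes of 0.42, 0.41, 0.35 and 0.27. Without BW723C86 replicate 1 the count that rose was 2, and without BW723C86 replicate 2 or replicate 3, 1 gene fell.

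The kinase cascade itself was taken from the adaptor Grb2 to the ERK-activated kinases. Beside 21.3% of all tested genes higher and 20.7% lower, 8 of its 22 genes rose, 4 fell and 10 did not pass. Their median log2 fold change was 0.05. Scaled by library totals alone, 3 rose and 7 fell, so the balance of this group depends on the scaling. Without BW723C86 replicate 2, 7 fell, and without DMSO replicate 3, 5 rose. Rras2, encoding a RAS-related GTPase, had 20.3 ± 1.79 CPM in BW723C86 and 5.44 ± 0.628 CPM in DMSO (log2 fold change 1.90). Ksr1, a scaffold for RAF, MEK and ERK, had 14.0 ± 1.33 CPM in BW723C86 and 37.7 ± 3.06 CPM in DMSO (log2 fold change -1.43). The docking protein gene Gab1 and the RAF activator gene Shoc2 had log2 fold changes of 0.43 and -0.41.

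**Figure D4:**
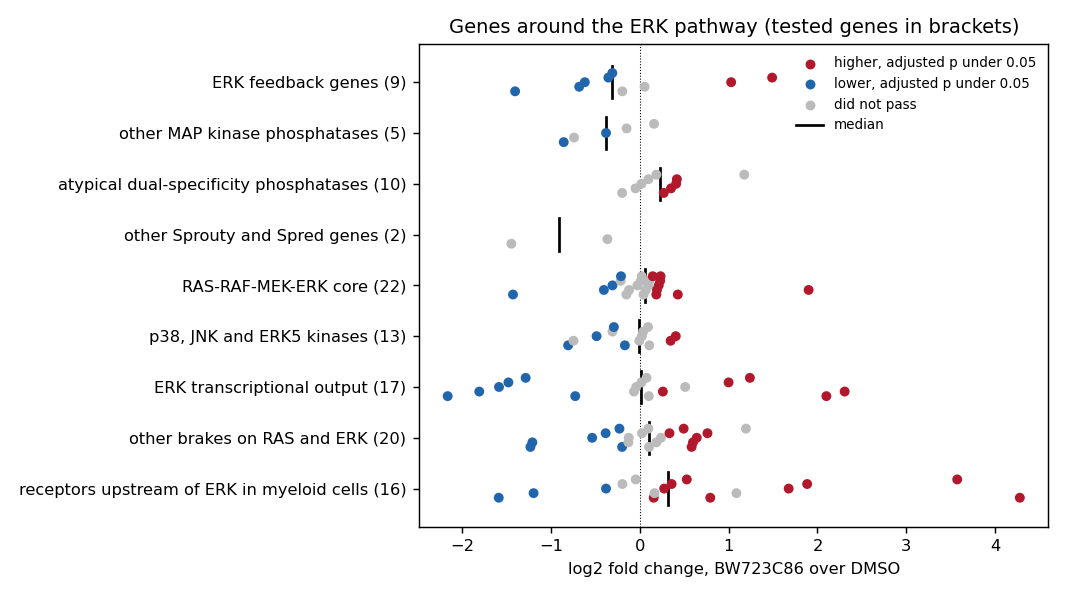
Log2 fold change, BW723C86 over DMSO (x axis), of each tested gene of the 9 ERK feedback genes and 8 lists around the pathway (rows, with the number tested); colour shows the edgeR call and the black bar the median. Called genes of the ERK transcriptional output row lie on both sides of 0, from -2.17 for Epha2 to 2.31 for Egr1.

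Genes known as transcriptional output of ERK went both ways, with 5 of 17 higher, 6 lower and 6 not past (median log2 fold change 0.02). Shares over all tested genes were 21.3% higher and 20.7% lower. Egr1 and Fosb, immediate early transcription factor genes, rose. Egr1 had 52.8 ± 3.45 CPM in BW723C86 and 10.7 ± 0.288 CPM in DMSO, and Fosb a log2 fold change of 2.10. Egr2 and Fos rose too, while Egr3 fell with a log2 fold change of -1.48 (adjusted p = 2.1e-06, edgeR). Junb, Ier2, Ier3 and Myc did not pass. Epha2, an ephrin receptor gene, and Phlda1, a pleckstrin homology-like domain gene, fell, with log2 fold changes of -2.17 and -1.81. Epha2 was low, with 22 to 29 counts in BW723C86 libraries and 114 to 137 counts in DMSO libraries. Phlda1 had 9.16 ± 0.676 CPM in BW723C86 and 32.2 ± 0.472 CPM in DMSO. Etv1, Etv4 and Etv5, ETS factor genes that were picked out after their values were seen, fell with log2 fold changes of -1.29, -1.59 and -0.73. Etv4 was low, with 11 to 28 counts in BW723C86 libraries and 52 to 71 counts in DMSO libraries.

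Among 13 tested genes of the p38, JNK and ERK5 cascades, of which p38 and JNK are substrates of the Dusp1 and Dusp16 products, 2 rose, 4 fell and 7 did not pass. Mapk13, encoding p38 delta, and Mapkapk3, a kinase downstream of p38, fell with log2 fold changes of -0.81 and -0.49. Map2k3, an activator of p38, and Map2k5, the activator of ERK5, rose by 0.40 and 0.35 on the log2 scale. Among 20 other brakes on RAS and ERK, 6 rose, 6 fell and 8 did not pass. Both lists stand beside 21.3% higher and 20.7% lower over all tested genes. Dab2ip (0.947 ± 0.269 CPM in BW723C86 and 2.23 ± 0.536 CPM in DMSO) and Rasa2, RAS GTPase-activating protein genes, fell with log2 fold changes of -1.23 and -1.21. Dok2, an adaptor that recruits such proteins, and Rasa4, another of them, rose by 0.76 and 0.64 on the log2 scale.

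Of 16 receptor genes upstream of ERK, 9 rose, 3 fell and 4 did not pass (median log2 fold change 0.31). Over all tested genes, 21.3% rose and 20.7% fell. The agonist's own receptor gene Htr2b had 124, 162 and 172 counts in BW723C86 libraries and 9, 5 and 13 counts in DMSO libraries. The growth factor receptor genes Flt1, Egfr and Met rose by 3.57, 1.88 and 1.68 on the log2 scale. Flt1 and Egfr were low in DMSO, at 0.789 ± 0.0710 and 1.04 ± 0.296 CPM. Met had 38.5 ± 0.249 CPM in BW723C86 and 12.1 ± 0.245 CPM in DMSO. The 3 that fell were Csf3r, Igf1r and Csf2rb, with log2 fold changes of -1.59, -1.20 and -0.38. Csf1r and Csf2ra were among those that rose, by 0.53 and 0.79.

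Cell type markers also differed between the groups. Macrophage markers were abundant in both groups, with a sum over 10 genes of 32919 to 34123 CPM in BW723C86 and 37410 to 38260 CPM in DMSO. All 10 tested neutrophil markers of 13 and all 10 monocyte markers were lower. The summed neutrophil markers ran from 715 to 821 CPM in BW723C86 and from 2654 to 2730 CPM in DMSO, mostly Mmp8. The monocyte sum ran from 1484 to 1608 CPM in BW723C86 and from 6030 to 6109 CPM in DMSO, mostly Chil3 and Fn1. Dendritic cell markers were higher for 7 of 9 tested, with sums of 6521 to 7255 CPM in BW723C86 and 1449 to 1497 CPM in DMSO. These sums were mostly Itgax, H2-Aa and H2-Ab1. Flt3 and Ccr7 did not pass, Xcr1 was not tested, and Zbtb46 had 5.85 ± 0.527 CPM in BW723C86 and 2.70 ± 1.04 CPM in DMSO. Mast cell markers were lower for 3 of 4 tested, with sums of 16.6 to 18.1 CPM in BW723C86 and 71.6 to 76.9 CPM in DMSO. Lymphocyte markers were lower for 5 of 6 tested, with sums of 3.44 to 5.05 CPM in BW723C86 and 8.52 to 12.2 CPM in DMSO. The lymphocyte sum was mostly Cd4 (1.38 ± 0.0421 CPM in BW723C86 and 4.49 ± 0.582 CPM in DMSO) and Klrb1c, which did not pass. Cd3e, Cd3d and Cd8a had too few counts to be tested. For these 6 sums the exact permutation p, two-sided, was 0.1, the smallest that 3 against 3 libraries allow. For these markers too, a change in the cells of a type and a change of RNA per cell cannot be told apart. The part of these marker shifts in the changes of the 9 genes was not tested. Neuronal markers, listed with RNA of the HT22 cells in mind, were near 0 over 9 genes, of 12 listed. Their sums were 0.612 to 1.13 CPM in BW723C86 and 0.450 to 1.22 CPM in DMSO (exact permutation p = 0.9). Of those 9, 4 had no count in any library, Map2, Nefl, Dcx and Neurod1. No library of HT22 cells alone was compared, so whether these markers would detect HT22 RNA was not tested.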

How the data were processed

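Per the labels' protocols, poly(A) RNA was copied into strand-marked cDNA and sequenced as paired ends. The submitters' processing notes name fastp, HISAT2, StringTie, edgeR and the builds GRCh38 and GRCm39. Versions, annotation and strand setting: not given in the sources used here. Values deposited by the authors are estimated counts, all whole numbers, so rounding left them as they were. They pile up at 4 (4613 values, against 2904 at 3 and 2552 at 5), so the worth of a fragment in counts is uncertain. Total counts ran from 58841307 to 75931615 per library. A floor of 3 counts equals 0.0386 to 0.0523 CPM and covers counting error only.

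Symbols (27005 of 28822 identifiers) came from a separate list of gene names. Exon lengths came from GENCODE M21, on another build. The test was edgeR 4.0.16 (R 4.3.3), quasi-likelihood, robust, TMM, default filter by group, two-sided, Benjamini-Hochberg over 15567 genes, threshold 0.05; the script was tested on simulated data. Within each group, all pairs of libraries differed beyond sampling noise, most of all those with BW723C86 replicate 2. The 9 genes and all lists were chosen with earlier results of these data known. The named genes are the 9, other family members, and up to 4 called genes of largest change per list, plus the 3 genes most correlated with Dusp6 and those said to be picked after their values were seen. Further genes of the output, receptor and marker lists were named for balance, also after their values were seen. Alternatives were other scalings and filters, DESeq2 1.42.0, limma-voom 3.58.1, a non-robust fit, counts divided by 4, a replicate block, each library left out, and a test against a fold change of 1.2. Some results are not reported here.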

Additional observations from a re-analysis of the deposited data

How the results depend on the processing

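Dusp1, Dusp6, Spry2 and Spred2 kept their direction and their call under every alternative that could test them, with log2 fold changes of 1.42 to 1.51, -1.48 to -1.38, -0.80 to -0.57 and -0.69 to -0.59; Spry2, like Dusp2 and Spry1, was not tested under the filter of 5 CPM in 3 libraries. That filter left 1 of the 9 genes higher. Against a fold change of 1.2, 4 of the 9 passed, 1 higher and 3 lower (Dusp2, Dusp4 and Spred1 lost their call at adjusted p of 0.063, 0.25 and 0.22), as did 3208 of all genes (1609 higher, 1599 lower) and 37 of the pathway lists' genes, 19 of them higher, against 59 with 34 higher. Without 1 library, 5 to 7 of the 9 passed, 1 to 2 higher and 4 to 5 lower. Over all the alternatives, the genes that passed in the whole table ran from 3208 to 7153, against 6534 of 15567 (42%) in the main test. Spry1, at a log2 fold change of 0.052, reversed to -0.0200 with library totals alone and ran from -0.0204 (without DMSO replicate 1) to 0.120 (without DMSO replicate 2) with 1 library left out, and it passed under none of these. Library totals alone gave 2581 genes higher and 4124 lower, against 3319 and 3215, and 27 and 32 genes of the pathway lists, against 34 and 25. It moved the log2 ratio of the summed macrophage markers to -0.25 and of the monocyte markers to -2.06. Library totals alone leave out the TMM factors, which were 0.956 to 0.992 for BW723C86 and 1.02 to 1.03 for DMSO libraries. The median log2 fold change over all tested genes was -0.0693 with library totals alone, against 0.00420 with TMM. Beyond that, the cause of the shifts above was not tested, apart from the fewer genes tested under the stricter filter. With the replicate block 7 of the 9 passed, 2 higher and 5 lower, and 6179 of all genes; deviations of same-numbered libraries from their group means correlated at 0.0310, -0.0247 and -0.00481, and 2 of 6 libraries correlated best with their own number. Depth limits Dusp2 most: its 31 to 72 counts stand for fewer fragments if a fragment is worth 4 counts.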
